A study of Mus musculus with 12 samples.

Results

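The tumor suppressor p53 and 9 genes of its pathway were followed in the fetal liver. They are Trp53, the mouse gene for p53, and Mdm2, Cdkn1a, Bbc3, Bax, Ccng1, Phlda3, Zmat3, Trp53inp1 and Pmaip1. They were chosen by symbol, and all 10 had a row among the 30743 rows of the table that the authors deposited. Whole livers had been taken from male C57BL/6J fetuses at 15 ± 0.5 dpc (days post coitum) and sequenced as polyA-selected RNA, 6 from dams fed a control diet with 13.5 kcal% fat and 6 from dams fed a high-fat diet (HFD) with 60 kcal% fat, in both cases for 12 to 14 weeks. The labels do not tie fetuses to dams, and the livers were not separated into cell types. The table gives an average level per gene over the libraries of both diets, as log2 CPM (reads of a gene scaled to a common library size), in 2 columns, 1 for each dispersion the authors used, beside the result of their own comparison of the diets. Only the average listed with the common dispersion was used here, so the levels below belong to both diets together, they have no error, and nothing is said of the effect of diet on any gene.

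p53 is a transcription factor that is kept low in unstressed cells and stabilized by DNA damage and other stress. Mdm2 is a ubiquitin ligase that marks p53 for degradation and is itself transcribed under p53, which closes a feedback loop. Among the other targets, Cdkn1a encodes p21, the inhibitor of cyclin-dependent kinases that arrests the cell cycle, and Bbc3 (Puma), Pmaip1 (Noxa) and Bax belong to the BCL2 family and promote release of cytochrome c from mitochondria. The fetal liver at this stage is the main site of blood formation, with dividing erythroid and progenitor cells beside hepatoblasts. In whole tissue, fewer cells of a type and less RNA per cell cannot be told apart.

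p53 binds DNA at pairs of a 10-base half-site, and the RefSeq promoter windows of the genes (build GRCm38.p6, from 250 bases before to 50 after a transcript start) were searched for it. Of the 10 genes, 7 had a window, and Bbc3 had 3 of them and Cdkn1a 2. An exact match to the consensus half-site, which reads the same on both strands, stood in a window of Bax, Ccng1, Cdkn1a, Mdm2 and Trp53, that is in 5 of the 7 genes and 5 of their 10 windows. Of all 32841 windows read, 8.36% held 1, and of the 27018 genes with a window, 9.56%. Phlda3 and Bbc3 had no exact match within their windows. The genes were chosen as members of the p53 pathway, so these counts are a description and were not tested. What the 5 genes share is a match to the consensus, and the letters of their half-sites differ. The stretches before the start that hold the matches follow, cut where an annotated exon begins, with each exact half-site in capitals. Each is written 5′ to 3′ on the strand of its gene, and the order is Cdkn1a (plus strand, chr17:29090729-29090975), Ccng1 (minus strand, chr11:40755312-40755536), Bax (minus strand, chr7:45466899-45467148), Mdm2 (minus strand, chr10:117710759-117711008) and Trp53 (plus strand, chr11:69580256-69580358).
Cdkn1a: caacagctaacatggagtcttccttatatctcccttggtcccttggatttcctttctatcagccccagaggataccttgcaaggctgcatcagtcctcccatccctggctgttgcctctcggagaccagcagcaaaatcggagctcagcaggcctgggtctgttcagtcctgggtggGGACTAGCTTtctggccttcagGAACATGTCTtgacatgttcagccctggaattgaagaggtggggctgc
Ccng1: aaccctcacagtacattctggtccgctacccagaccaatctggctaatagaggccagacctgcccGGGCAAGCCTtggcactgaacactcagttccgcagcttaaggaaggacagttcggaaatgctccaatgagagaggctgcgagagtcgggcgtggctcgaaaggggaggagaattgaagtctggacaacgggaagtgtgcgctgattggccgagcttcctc
Bax: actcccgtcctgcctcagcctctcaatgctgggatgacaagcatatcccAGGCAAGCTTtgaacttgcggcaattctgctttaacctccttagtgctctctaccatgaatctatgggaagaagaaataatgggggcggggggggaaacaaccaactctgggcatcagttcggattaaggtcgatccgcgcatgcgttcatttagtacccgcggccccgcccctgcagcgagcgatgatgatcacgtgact
Mdm2: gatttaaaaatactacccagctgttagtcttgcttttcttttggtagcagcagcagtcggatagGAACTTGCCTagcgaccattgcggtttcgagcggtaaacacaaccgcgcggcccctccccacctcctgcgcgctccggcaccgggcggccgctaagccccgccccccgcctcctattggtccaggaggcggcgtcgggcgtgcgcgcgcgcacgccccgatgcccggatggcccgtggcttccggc
Trp53: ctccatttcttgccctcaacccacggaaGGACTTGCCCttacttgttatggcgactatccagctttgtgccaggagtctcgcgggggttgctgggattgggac

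The window of Cdkn1a with matches belongs to the more upstream of its 2 starts, at 29090979, and that of the downstream start at 29093769 held none. Its exact half-sites, GGACTAGCTT and GAACATGTCT, began 73 and 51 bases before the start and were 12 bases apart. The second was followed without a gap by a half-site with 1 mismatch, which together read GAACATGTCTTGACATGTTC. In Ccng1 the half-site GGGCAAGCCT began 185 bases before the start, and with the 10 bases before it formed a pair with 1 mismatch, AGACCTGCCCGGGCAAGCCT. Pairs with a spacer of at most 13 bases and at most 1 mismatch stood in 2 of the 7 genes, these 2, and in 0.718% of all genes with a window. In Bax the half-site AGGCAAGCTT began 201 bases before the start, with a neighbour on either side at a total of 2 mismatches each. Pairs with up to 2 mismatches stood in 3 of the 7 genes, Bax, Ccng1 and Cdkn1a, and in 4.71% of all genes with a window. The half-sites of Mdm2 (GAACTTGCCT, 186 bases before the start) and Trp53 (GGACTTGCCC, 75 bases before the start) had no such partner within their windows. Bases outside the windows were not searched for any gene. A match is a description of the letters and was not tested as a binding site.

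**Figure D1:**
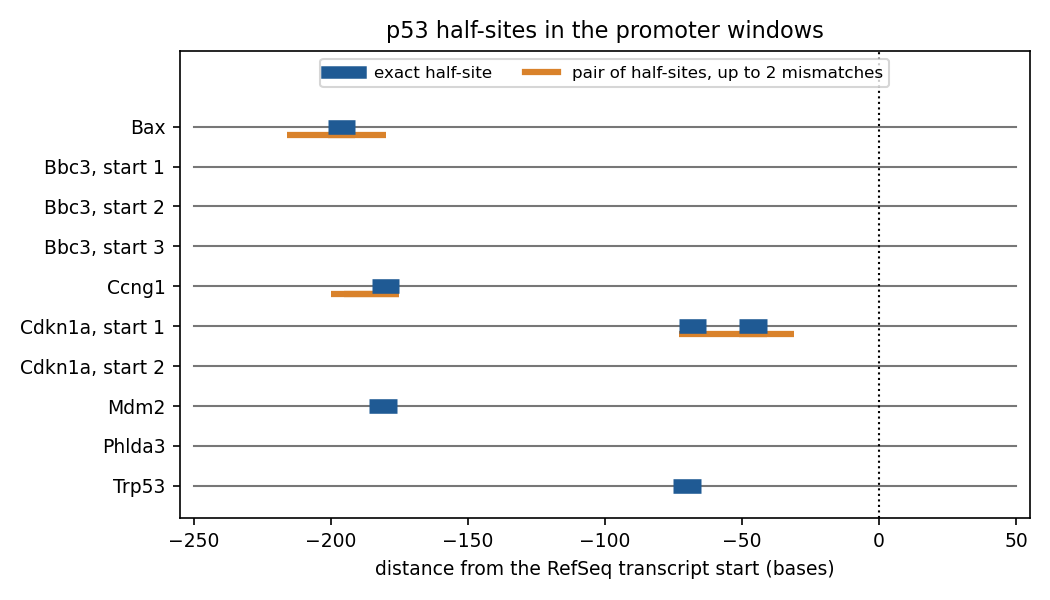
Position of p53 half-sites in the 10 RefSeq promoter windows of 7 p53 genes, as distance in bases from the transcript start (dotted line). Thick blocks are exact half-sites and thin bars below them are pairs with up to 2 mismatches. All 6 exact half-sites lie before the start, between 201 and 51 bases away from it, and the windows of Bbc3, of Phlda3 and of the downstream start of Cdkn1a hold none.

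In base composition the windows of the 7 genes ranged from 52.7% G or C in Trp53 to 78% in the most downstream window of Bbc3, against a median of 52.7% over all windows. The number of CpG dinucleotides ranged from 2 in the upstream window of Cdkn1a to 39 in that same window of Bbc3, against a median of 7. The downstream window of Cdkn1a held 23. GGGCGG, the core of the GC box, was found on either strand in 5 of the 7 genes (Bax, Bbc3, Cdkn1a, Mdm2 and Phlda3) and in 38.2% of all genes with a window. CCAAT stood in 4 of the 7 (Bbc3, Ccng1, Mdm2 and Trp53) and in 41.1% of all such genes. TATAAA stood in Trp53 alone among the 7, and in 15.7% of all such genes.

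The levels rest on an average that includes a small constant for each library, so the lowest value, shared by many rows and taken as that of a row without reads, is 0.152 CPM and not 0. Of the 30743 rows, 11091 stood at that lowest value and 19652 had reads. If the constant was 2 reads, which the sources used here do not state, the mean normalized library held 13129752 reads. The liver showed its main cell types in this table: albumin (Alb) was listed at 63314 CPM, alpha-fetoprotein (Afp) at 54525 CPM, and the globin gene Hba-a2 at 49707 CPM. The other hepatocyte markers Ttr, Apoa2 and Fgb stood between 2251 and 2590 CPM, Hbb-b1 and Hbb-bs at 24904 and 44564 CPM, and the erythroid marker Klf1 at 692 CPM. However, several markers of cells present in the fetal liver were at or near the lowest value. Hnf4a (hepatocytes), Adgre1 (macrophages), Pecam1 (endothelium) and Pdgfrb (stellate cells) were listed at it, as was Sftpc of the lung. Alas2, the erythroid enzyme of heme synthesis, stood at 0.704 CPM, and the macrophage genes Cd68 and Csf1r at 0.209 and 0.684 CPM. Kdr and Stab2 of the endothelium stood at 71.0 and 2.24 CPM, Des and Col1a1 at 23.9 and 468 CPM, and, outside the liver, Snap25 of neurons at 0.305, Ckm of muscle at 10.3 and Cpa1 of the pancreas at 8.04 CPM. Of 75 cytosolic ribosomal protein genes, which every cell uses and which were chosen as a check after values had been seen, 10 were listed under 1 CPM and 4 at the lowest value, while their median was 17.0 CPM and the highest, Rpl4, stood at 2441 CPM. A low value in this table is therefore given only as a listed value and not as absence of the transcript.

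Against this background the p53 genes spanned the range from strongly expressed to nearly without reads. Their levels were compared per kilobase of exon, since longer transcripts yield more reads. The length is that of all annotated exons of a gene merged, which can be longer than any of its transcripts. The order has no test because the spread between livers was not used here. Whether the listed level of any of them is too low, as for the ribosomal protein genes above, was not tested. Ccng1 stood far above the others, and Trp53 itself ranked 7 of the 10. None of the 10 was at the lowest value, and 7 were above 1 CPM.

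Ccng1 encodes cyclin G, a p53 target that takes part in the control of Mdm2. It was listed at an average log2 CPM of 6.72, or 106 CPM, and at 30.1 CPM per kilobase over its 3512 exon bases. That level was 36.5 times that of Trp53 per kilobase and 3.08 times that of Bbc3, the next in order. The ratio to Trp53 depends on the length used. The merged exons of Trp53 came to 4045 bases and its longest coding transcript to 1867, against 3512 for Ccng1 on both. On these transcript lengths the ratio would be lower than 36.5, since only the length of Trp53 falls, and it was not computed. Per kilobase of coding sequence the ratio was 42.1. Ccng1 alone accounted for 55.3% of the summed CPM per kilobase of the 10 genes. It lay at percentile 92.1 of the 19652 rows with reads by CPM and at percentile 91.3 per kilobase. On mm10 (GRCm38), Ccng1 spans chromosome 11 from 40748552 to 40755311, minus strand. Its transcript shared no stretch of 100 bases or more at 95% identity with a transcript of another gene in GENCODE M21.

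The 3 BCL2 family genes among the 10, Bbc3, Bax and Pmaip1, ranked 2, 4 and 5 per kilobase. Bbc3, whose protein binds all anti-apoptotic BCL2 proteins, was listed at 20.7 CPM and 9.76 CPM per kilobase (chromosome 7, 16308393 to 16318205, plus strand). Bax, which forms the pore in the mitochondrial outer membrane, stood at 5.62 CPM and 3.57 CPM per kilobase (chromosome 7, 45461697 to 45466898, minus strand). Pmaip1, which binds and neutralizes Mcl1, stood at 7.49 CPM and 2.74 CPM per kilobase (chromosome 18, 66458533 to 66465565, plus strand). Bbc3 was thus the highest of the 3 on either scale, while Bax and Pmaip1 changed places with the scale. All 3 lay above the median of the rows with reads, at percentiles 81.2, 71.4 and 68.8 per kilobase. Bax shares 192 exon bases with Gm45808, an annotated protein-coding gene on the same strand that overlaps it. Gm45808 is not among the rows of the table. The annotation used for counting is not known here, and whether reads on these bases were counted for Bax was not tested.

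Phlda3 and Zmat3 were the other targets above the level of Trp53. Phlda3, an inhibitor of Akt at the membrane, was listed at 8.96 CPM and 5.75 CPM per kilobase (chromosome 1, 135766119 to 135769136, plus strand), rank 3 of the 10 per kilobase. Zmat3, a zinc finger protein that binds RNA, was listed at 15.0 CPM and, over the longest exon length of the 10 at 11435 bases, at 1.31 CPM per kilobase (chromosome 3, 32334792 to 32366014, minus strand). Its transcript shared 268 bases, 3.44% of its length, with transcripts of 8 other genes. Zmat3 ranked 3 of 10 by CPM and 6 of 10 per kilobase. Of the 2, Phlda3 was thus the higher per kilobase and Zmat3 the higher by CPM.

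Trp53 was listed at an average log2 CPM of 1.74, or 3.33 CPM, and at 0.824 CPM per kilobase, percentile 56.0 of the rows with a length (chromosome 11, 69580359 to 69591873, plus strand). Its level was 3.15 times that of Cdkn1a, the gene of the arrest factor p21, which was listed at 0.929 CPM and 0.262 CPM per kilobase (chromosome 17, 29090976 to 29100727, plus strand). Cdkn1a thus lay below the median, at percentile 42.0, and was far under the other p53 targets Ccng1 and Bbc3. Per kilobase of coding sequence Trp53 stood at 2.85 and Cdkn1a at 1.95 CPM, closer to each other than per kilobase of exon. Trp53inp1, a stress protein of nucleus and autophagosome, stood at 0.613 CPM and 0.0947 CPM per kilobase (chromosome 4, 11156431 to 11174379, plus strand). Its percentile was 23.5 per kilobase and 41.3 by CPM. Mdm2 was the lowest of the 10, at an average log2 CPM of -2.30, or 0.203 CPM and 0.0399 CPM per kilobase (chromosome 10, 117688875 to 117710758, minus strand). Its percentile was 8.07 per kilobase and 18.9 by CPM. With the value of a row without reads subtracted, its level was 0.00998 CPM per kilobase.

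Cdkn1a, Trp53inp1 and Mdm2 were thus the members under 1 CPM, where few reads stand behind the values. With the constant of 2 reads, the listed levels correspond to about 10.2 reads per library for Cdkn1a, 6.05 for Trp53inp1 and 0.666 for Mdm2, against 41.8 for Trp53 and 1386 for Ccng1. With the value of a row without reads subtracted, Trp53 was 78.8 times Mdm2 per kilobase, against 20.6 times without it. The order of the 10 genes was the same on both scales. At this depth the level of Mdm2 could hardly be told from that of a row without reads, and since genes of the ribosome were listed as low, its value is not evidence that the gene was silent. The transcripts of Mdm2 and Trp53inp1 shared no stretch of 100 bases or more at 95% identity with another gene in the annotation. The transcript of Cdkn1a shared 262 bases with AC167363.2, a gene still to be experimentally checked that is annotated on the opposite strand, and the library kit did not keep the strand.

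**Figure D2:**
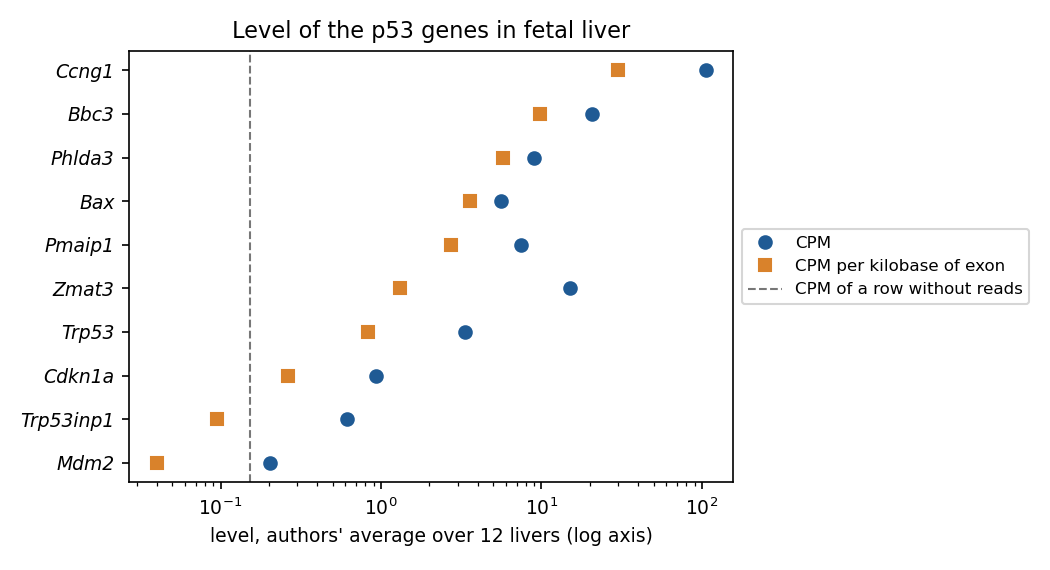
Listed level of the 10 p53 genes as the authors' average over the 12 livers of both diets, on a log axis, in CPM (circles) and CPM per kilobase of exon (squares), with no error bars since values of single livers were not used. The genes are in order of CPM per kilobase, from Ccng1 at 30.1 to Mdm2 at 0.0399, and the circle of Mdm2 lies just above the dashed line, the CPM of a row without reads.

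**Figure D3:**
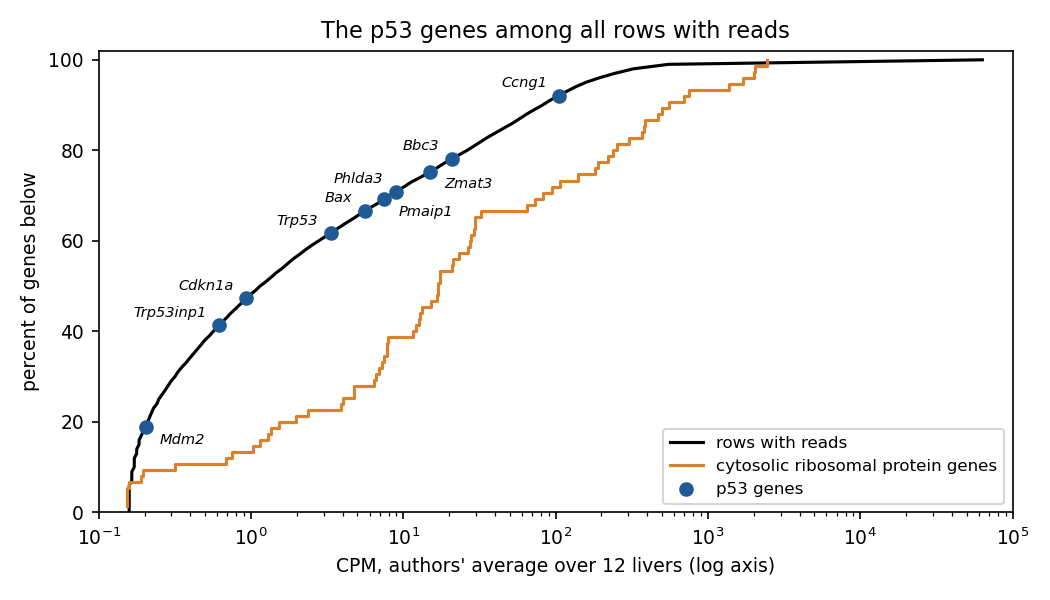
Percent of genes below a given CPM (log axis) for the 19652 rows with reads (dark line) and for 75 cytosolic ribosomal protein genes (light stepped line), with the 10 p53 genes marked on the first. Of the p53 genes, 7 lie above the median of the rows with reads, and the stepped line starts at the lowest value, where 4 ribosomal protein genes are listed.

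The 10 genes had a median of 2.02 CPM per kilobase, against 0.469 for all rows with reads and a length. Their median by CPM was 6.56, against 1.15 for the rows with reads. Of the 10 genes, 30% lay under 1 CPM, against 48.2% of the rows with reads and 66.9% of all rows. The 75 matched genes of the related lists below were close to the 10, with 30.7% under 1 CPM and a median of 5.42 CPM. Of the 18694 rows matched to a protein-coding gene, 54.9% lay under 1 CPM, and their median was 0.636 CPM.

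The genes that act on p53 before its targets had a lower median than the 10 genes. The 15 upstream regulators and cofactors had a median of 0.498 CPM per kilobase, 9 of them were at or above 1 CPM, and Trp63 and Trp73, the p53 relatives, were listed at the lowest value. Rchy1, a ubiquitin ligase for p53, was the highest of them per kilobase, at 73.1 CPM and 19.4 CPM per kilobase. Mdm4, which binds p53 and is the partner of Mdm2, was the lowest with reads per kilobase of exon, at 0.209 CPM and 0.0141 CPM per kilobase. By CPM, Cdkn2a at 0.159 and Atm at 0.165 were listed lower, and with the value of a row without reads subtracted Atm was also the lower per kilobase, at 0.00123 against 0.00385 for Mdm4. Mdm2 and Mdm4 were thus listed near the value of a row without reads, and Rchy1 was not.

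Among other targets that arrest the cell cycle, 6 of 9 were at or above 1 CPM, with a median of 2.25 CPM per kilobase. The highest was Btg2, an antiproliferative gene, at 402 CPM and 146 CPM per kilobase, and the lowest Plk3, a kinase of the stress response, at 0.100 CPM per kilobase. Btg2 thus stood above each of the 10 p53 genes. Of 10 other apoptosis and death targets, 7 were at or above 1 CPM and the median was 0.581 CPM per kilobase. Their highest was Perp, a membrane protein of desmosomes, at 20.7 CPM per kilobase, and their lowest with reads on that scale was Eda2r, a receptor of the TNF family, at 0.0464. Apaf1, the scaffold of the apoptosome, was listed at the lowest value. Of the 12 targets in repair and metabolism 11 were matched, 7 of them at or above 1 CPM, with a median of 1.64 CPM per kilobase. They ran from Psrc1, a spindle protein, at 0.0471 to Rps27l, a ribosomal protein relative, at 157 CPM per kilobase. Psrc1, at 0.159 CPM, was listed near the value of a row without reads. With that value subtracted it stood at 0.00186 CPM per kilobase.

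The other BCL2 family genes listed beside Bax, Bbc3 and Pmaip1, not all of them binding partners, differed widely in level. Of 13 BCL2 family genes, 7 were at or above 1 CPM, with a median of 0.573 CPM per kilobase. Mcl1, the anti-apoptotic protein that Pmaip1 and Bbc3 bind, stood highest at 486 CPM and 142 CPM per kilobase. The anti-apoptotic Bcl2 and Bcl2l1 stood at 0.852 and 0.742 CPM per kilobase, so that Bbc3, at 9.76, lay between these and Mcl1. Bak1, the pore-forming relative of Bax, was listed at 0.191 CPM and 0.0792 CPM per kilobase, under the 3.57 of Bax. Hrk, a neuronal death gene, was the lowest per kilobase of exon, at 0.272 CPM and 0.0480 CPM per kilobase, but Bak1 was below it by CPM and, with the value of a row without reads subtracted, also per kilobase, at 0.0159 against 0.0212. The 6 genes of the caspase cascade were all at or above 1 CPM, and the highest per kilobase was Cycs, which encodes cytochrome c, at 3.55 CPM per kilobase.

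Genes for proteins that p21 binds had the highest median of the lists. Of 11 cyclins, kinases and Pcna, 10 were at or above 1 CPM, with a median of 25.1 CPM per kilobase. Ccna2, cyclin A, was listed at 1002 CPM and 245 CPM per kilobase, Pcna, the sliding clamp of replication, at 218, Cdk4 at 165 and Cdk2 at 2.28 CPM per kilobase. Cdk6 was the lowest at 0.0250. Cdkn1a, at 0.262 CPM per kilobase, was thus listed under each of Cdk2, Cdk4 and Pcna.

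**Figure D4:**
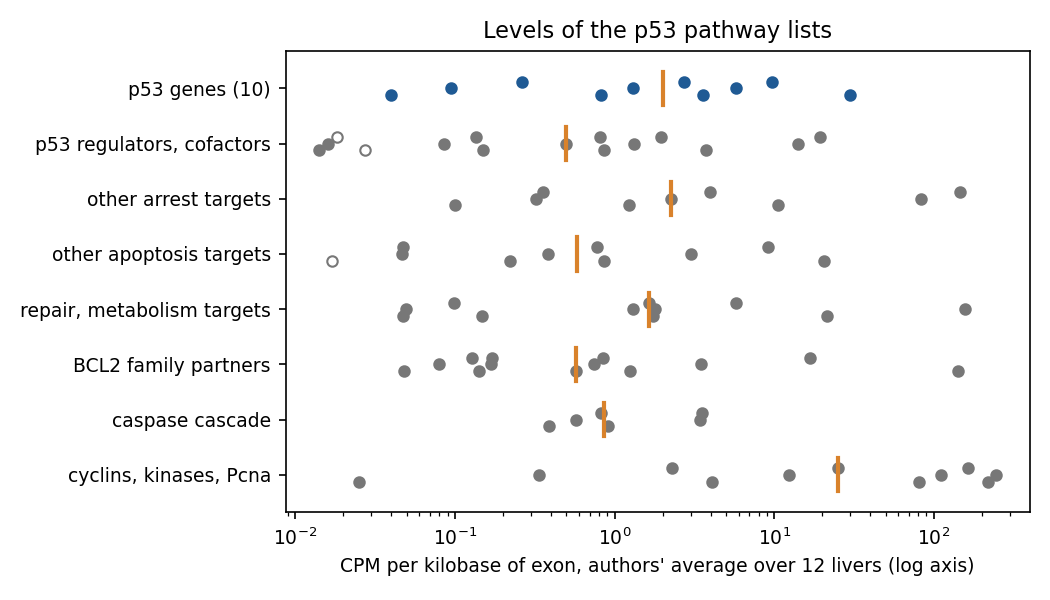
CPM per kilobase of exon (log axis), as the authors' average over 12 livers, of the 10 p53 genes (top) and of 7 lists of related genes, with 1 point for each gene and a bar at the median. Open points are genes listed at the lowest value. The cyclins and kinases have the highest median, at 25.1, and the p53 genes a median of 2.02.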

How the data were processed

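Total RNA from the livers of 12 male fetuses (6 control, 6 HFD) was polyA-selected, prepared with a kit that does not keep the strand and sequenced by the authors. Per the labels, the submitters' processing notes name cutadapt 1.2.1, Subread 1.3.6-p1, edgeR and mm10. The paper's methods add annotation with biomaRt. The counting tool and annotation release are not given in the sources used here.

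The deposited table gives, per gene symbol, an average log2 CPM that the authors computed over the libraries (once for each of 2 dispersions, of which that with the common dispersion was used), and the result of their comparison of the diets (log2 fold changes, signed fold changes, p-values and adjusted p-values, 8 columns), which was not used. A count test was not run, because the table holds no counts of single livers. Of the rows, 7579 are named by a sequence accession.

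CPM was taken as 2 to the power of the average and divided by the merged exon length in GENCODE M21 (GRCm38, the build of mm10), matched by symbol for 21025 rows. Percentiles were taken over rows above the lowest value and, per kilobase, over the 15856 of them with a length. Older symbols were matched through RefSeq: Pidd1 stands as Lrdd, Tigar as 9630033F20Rik, Adgre1 as Emr1 and Hbb-bs as Beta-s, and Sco2, Hba-a1 and Hbb-bt were not matched. Transcripts were compared with blastn 2.17.0. Half-sites were searched in 32841 RefSeq windows. The merging of exons, the percentile and the search for exact half-sites were tested on made-up data, and the other steps were not. Python 3.11.15, numpy 2.4.6 and pandas 2.3.3 were used.

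The members and lists were chosen with earlier results of these data known. All 10 members are named. Of each list, the highest and lowest gene with reads per kilobase and genes without reads are named, together with Mdm4, Bcl2, Bcl2l1, Mcl1, Bak1, Cdk2, Cdk4 and Pcna, which were taken as direct binding partners of members. Other genes of the lists also bind members and are not named for it. Atm and Cdkn2a are named after their values were seen. Some items under this rule are not reported here.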

Additional observations from a re-analysis of the deposited data

How the results depend on the processing

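The average over both diets carries no spread between livers, no test was made, and no order of levels was tested. No paired analysis was possible because the result comes from no test and the table holds no value of single livers. For the same reason the count tests, another filter on counts and leaving out single livers were not run. The average with the other dispersion and the length from RefSeq proteins were not run either. Coding length from GENCODE took the place of the latter, and it, the subtraction of the value of a row without reads and pairs with 1 mismatch were chosen after seeing the data.

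The median level of the 10 genes was 2.02 CPM per kilobase of exon and 13.5 per kilobase of coding sequence, which is shorter by construction. On the coding scale 4 of the 10 genes had another rank, by at most 2 places, and on the scale of CPM 3, by at most 3 places. With the value of a row without reads subtracted the median was 1.99, and Mdm2 was the member that moved by over 1.5 times. The median percentile was 67.9 over rows with reads, 38.0 over rows above 1 CPM, where the 3 genes under 1 CPM stand at 0, 79.5 over all rows and 64.8 per kilobase. Exact half-sites stood in windows of 5 genes, half-sites with up to 1 mismatch in 6 (54.2% of all genes with a window), pairs with up to 2 mismatches in 3 and pairs with up to 1 mismatch in 2.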
